A study of Mus musculus with 10 samples.

Results

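The citrate cycle and the steps by which pyruvate and propionyl-CoA enter it were examined in old mouse kidney through a list of 31 genes. The genes were chosen by name: a gene counted as measured if at least 1 probe set of the array carried its symbol and no other, and its value was that of its brightest probe set (highest mean log2 signal over the 10 arrays). Of the 31 genes 30 were measured, among 18193 genes with a probe set of their own; Mpc2, a subunit of the mitochondrial pyruvate carrier, was not analysed here. All 30 lay above the filter on dim probe sets, with mean log2 signals of 7.31 to 14.19 and a median of 12.41. The kidneys came from male C57BL/6 mice aged 30 months, 5 on a calorie restricted diet and 5 on a control diet, with 1 mouse per array. How strong the restriction was, how long it lasted and whether the mice were fed when killed is not stated in the labels. Whole kidney was measured, so a change in the share of a cell type and a change of RNA per cell cannot be told apart.

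In this pathway pyruvate crosses the inner mitochondrial membrane through the Mpc1 and Mpc2 carrier and is turned into acetyl-CoA by the pyruvate dehydrogenase complex, which kinases switch off and the phosphatases Pdp1 and Pdp2 switch on. Citrate synthase joins acetyl-CoA to oxaloacetate, and the cycle then runs through isocitrate, 2-oxoglutarate, succinate, fumarate and malate back to oxaloacetate, giving reducing equivalents to the respiratory chain. The proximal tubule, the most abundant part of the kidney, relies on mitochondrial oxidation to drive reabsorption and also uses cycle intermediates for glucose production.

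RefSeq promoter windows (build GRCm38.p6, 250 bases before to 50 after the transcript start) were found for 28 of the 31 genes, in 36 windows; Pdp1, Idh3a and Me2 had no entry. The windows were rich in G and C, with a median over genes of 62% (richest window of each gene), against 53.3% over all 27025 genes of the table. Shown here are the 150 bases before the start of Cs and Mdh2, the genes of the list that passed the test, and of the 3 members whose windows held one of the longer motifs searched, with that motif in capitals. Ogdh had several starts, and the one shown lies inside the gene.
Cs, chr10:128337577-128337726, plus strand: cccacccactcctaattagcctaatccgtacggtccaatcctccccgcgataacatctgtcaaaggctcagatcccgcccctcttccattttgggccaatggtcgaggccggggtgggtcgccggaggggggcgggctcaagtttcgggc
Mdh2, chr5:135778499-135778648, plus strand: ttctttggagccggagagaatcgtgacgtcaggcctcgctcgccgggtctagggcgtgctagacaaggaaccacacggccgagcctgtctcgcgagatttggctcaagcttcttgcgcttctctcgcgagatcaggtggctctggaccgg
Ogdh, chr11:6292408-6292557, plus strand: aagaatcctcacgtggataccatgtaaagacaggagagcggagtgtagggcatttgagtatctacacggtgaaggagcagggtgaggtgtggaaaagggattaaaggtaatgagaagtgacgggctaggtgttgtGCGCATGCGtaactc
Pccb, chr9:101034885-101035034, minus strand: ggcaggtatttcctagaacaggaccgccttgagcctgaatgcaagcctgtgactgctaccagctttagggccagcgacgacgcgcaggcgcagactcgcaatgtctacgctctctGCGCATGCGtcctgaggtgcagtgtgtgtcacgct
Idh3g, chrX:73786898-73787047, minus strand: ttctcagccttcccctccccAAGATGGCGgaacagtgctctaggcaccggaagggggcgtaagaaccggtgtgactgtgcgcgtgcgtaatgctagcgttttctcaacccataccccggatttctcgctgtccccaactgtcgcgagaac
The motifs were searched on both strands: TCAAGGTCA for estrogen-related receptors and its core AAGGTCA, which overlap each other, GCGCATGCG for NRF1 and AAGATGGCG for YY1. TCAAGGTCA was in 0 of 28 members and in 0.466% of all genes, and AAGGTCA in 1 member, Ogdh, and 5.38% of all genes. GCGCATGCG was in Ogdh and Pccb, 7.14% of members against 1.95% of all genes, and AAGATGGCG in Idh3g, 3.57% of members against 1.64% of all genes. A gene counted if any of its windows held the motif. The Ogdh matches were in windows of starts inside the gene, not in those nearest to the gene start. These matches describe letters in the windows and say nothing of binding.

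The arrays were not alike in 1 measure of RNA quality, and within each diet many members were low on the arrays where it was high. The log2 ratio of 3' to 5' signal of the Gapdh and Actb control probe sets, which is higher where RNA is shorter, was 2.21, 2.01, 1.75, 1.24 and 1.16 in calorie-restricted replicates 1 to 5, against 0.91, 0.76, 0.94, 1.39 and 1.25 in control replicates 1 to 5 (exact permutation test, 2-sided, p = 0.0476). Calorie-restricted replicates 1 to 3 thus stood above every control array, and controls 4 and 5 were the highest of the controls. Results are therefore given also over replicates 4 and 5 of each diet, 2 arrays against 2, where the ratios were 1.24 and 1.16 in calorie-restricted and 1.39 and 1.25 in control kidney. The arrays also differed with brightness: over the 837 tested probe sets with a mean log2 signal of at least 13 the median difference, calorie restricted minus control, was 0.21 with the deposited scaling and 0.0018 after quantile normalization. The 12 members in that range had medians of 0.075 and -0.079. The mean signal of an array was 786 to 831 in calorie-restricted and 755 to 768 in control kidney.

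Of the 30 measured members 2 rose in calorie-restricted kidney, Cs and Mdh2, 0 fell and 28 did not pass the test (limma, adjusted p under 0.05 over 22519 probe sets). The share called was 6.67%, near the background of 6.10% among all 12196 tested genes, of which 3.08% were called higher and 3.02% lower. At an unadjusted p under 0.05 in limma there were 6 members higher and 2 lower, beside 5885 of all 22519 tested probe sets in either direction. All 5 calorie-restricted arrays lay above all 5 control arrays for 4 members, Cs, Mdh2, Idh1 and Ogdh, and below for 0. Over all tested genes such a separation was seen upward in 3.80%, against 13.3% of members, and downward in 3.69%. These shares were not matched for brightness. Mdh2 and Idh1 had mean log2 signals of at least 13, where the median difference over tested probe sets was 0.21. The median difference of the members was -0.0060 on the log2 scale, against -0.0052 over all genes, with 14 members above 0 and 16 below. The members ran from -0.48 for Dld to 0.57 for Cs.

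**Figure D1:**
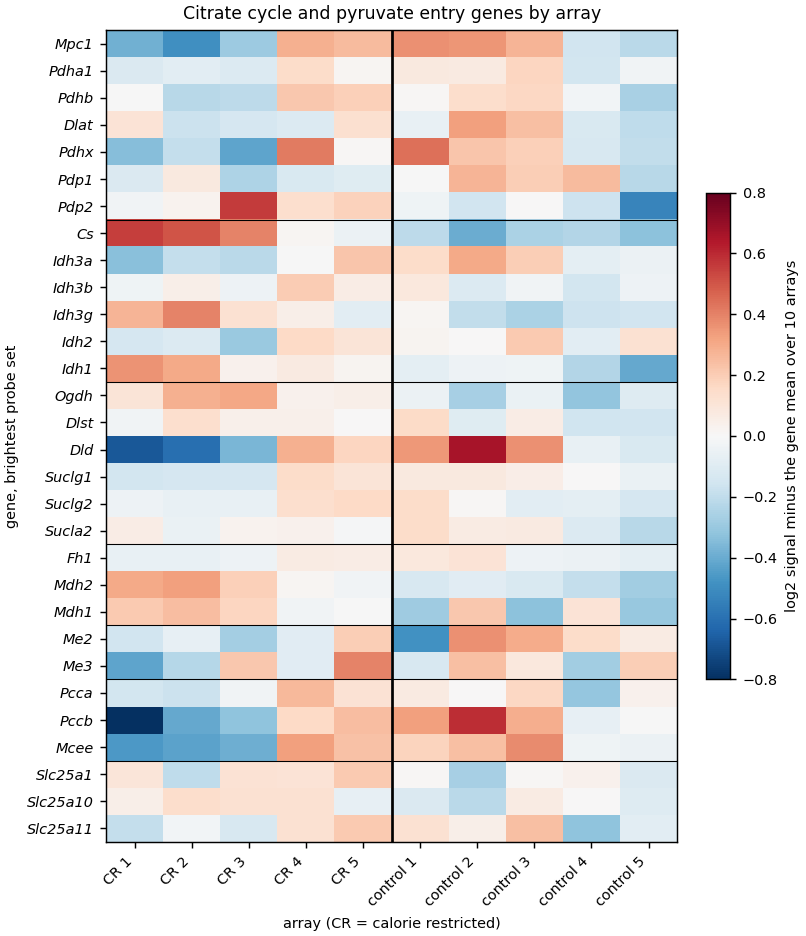
Heat map of log2 signal minus each gene's mean over the 10 arrays, 30 genes down the page in pathway order (black lines part the steps) and arrays across, calorie restricted (CR) left of control. Calorie-restricted replicates 1 to 3 and controls 4 and 5 are blue for many genes. Dld, Pccb, Mcee and Mpc1 are blue in calorie-restricted replicates 1 to 3 and pale blue to near white in controls 4 and 5. Cs is red in calorie-restricted replicates 1 to 3.

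Of the genes of pyruvate entry 7 were measured and none passed the test in limma; at an unadjusted p under 0.05 Pdp2 was the only one. Pdp2, a phosphatase that switches pyruvate dehydrogenase on, had 771, 801, 1157, 864 and 893 signal units in calorie-restricted kidneys, against 769, 707, 787, 702 and 546 in control kidneys. The groups overlapped through 1 control array at 787. Its log2 difference was 0.35 ± 0.14 (SE, n = 5 each, adjusted p = 0.128), and it was 0.50 over replicates 4 and 5 of each diet. The other phosphatase, Pdp1, differed by -0.20 ± 0.14, and its second probe set by -0.27.

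The carrier subunit Mpc1 had 6541, 6084, 6966, 10395 and 10166 signal units in calorie-restricted replicates 1 to 5, against 11002, 10918, 10312, 7665 and 7337 in control replicates 1 to 5. Both groups were split, with 3 low calorie-restricted arrays and 2 low control arrays, the same arrays that had high 3' to 5' ratios for their group. The difference was -0.25 ± 0.17 over all arrays (adjusted p = 0.37) and 0.45 over replicates 4 and 5 alone. The catalytic subunits of pyruvate dehydrogenase lay close to 0, Pdha1 at -0.057 and Pdhb at -0.011. Their 95% intervals were -0.23 to 0.12 and -0.25 to 0.23. The other probe set of each differed by -0.12 for Pdha1 and by 0.11 for Pdhb. Dlat, the acetyl transferase core of the complex, differed by -0.072 and Pdhx, which anchors the shared E3 subunit, by -0.21. Over replicates 4 and 5 these 4 genes differed by 0.17, 0.34, 0.17 and 0.37.

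Cs, citrate synthase, which makes the entry of acetyl-CoA into the cycle, showed the largest difference of the members. Its brightest probe set had 9554, 9251, 8586, 6578 and 6296 signal units in calorie-restricted replicates 1 to 5, against 5642, 4942, 5472, 5551 and 5190 in the controls. Every calorie-restricted array lay above every control array, by far in replicates 1 to 3 and by less in replicates 4 and 5. The means were 8053 ± 1520 in calorie-restricted and 5360 ± 288 in control kidney (SD, n = 5), a log2 difference of 0.57 ± 0.12 (SE, adjusted p = 0.0216). It was 0.49 after quantile normalization, 0.26 over replicates 4 and 5 of each diet (adjusted p = 0.284) and 0.27 with the 3' to 5' ratio as covariate in the model (adjusted p = 0.294). Leaving out any 1 of calorie-restricted replicates 1 to 3, or control replicate 2, also ended the call (differences of 0.50 to 0.54, adjusted p 0.0556 to 0.0594).

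The other probe sets of Cs did not follow. The second in brightness had 5249, 5152, 5650, 5429 and 6028 signal units in calorie-restricted and 5143, 5748, 6778, 5262 and 5599 in control kidney, a difference of -0.048 ± 0.091, and the third differed by -0.042 ± 0.15. Over replicates 4 and 5 alone the 3 probe sets differed by 0.26, 0.076 and 0.46. The rise of Cs over all arrays thus rests on 1 of its 3 probe sets, and the mean over them differed by 0.16 (adjusted p = 0.248). Which parts of the transcript the probe sets bind was not analysed here.

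Among the isocitrate dehydrogenases none passed. Idh1, the cytosolic NADP-dependent enzyme, had 21971, 21075, 17486, 17994 and 17358 signal units in calorie-restricted kidneys, against 16221, 16620, 16662, 14514 and 12895 in control kidneys. The groups did not overlap, and the difference was 0.32 ± 0.096 (adjusted p = 0.0614) but 0.098 after quantile normalization. Its other probe set differed by -0.21 ± 0.14. Idh3g, a regulatory subunit of the NAD-dependent mitochondrial enzyme, differed by 0.30 ± 0.094 (adjusted p = 0.0669) with 10644 to 14860 signal units in calorie-restricted and 9464 to 11390 in control kidney, while its other probe set differed by -0.086. The catalytic subunit Idh3a differed by -0.21 ± 0.12, its 3 other probe sets by 0.066 to 0.39, and the subunit Idh3b by 0.096 and 0.19 in its tested probe sets. Idh2, the mitochondrial NADP-dependent enzyme, differed by -0.11 ± 0.097, and its other, dim probe set by 0.26 ± 0.24.

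**Figure D2:**
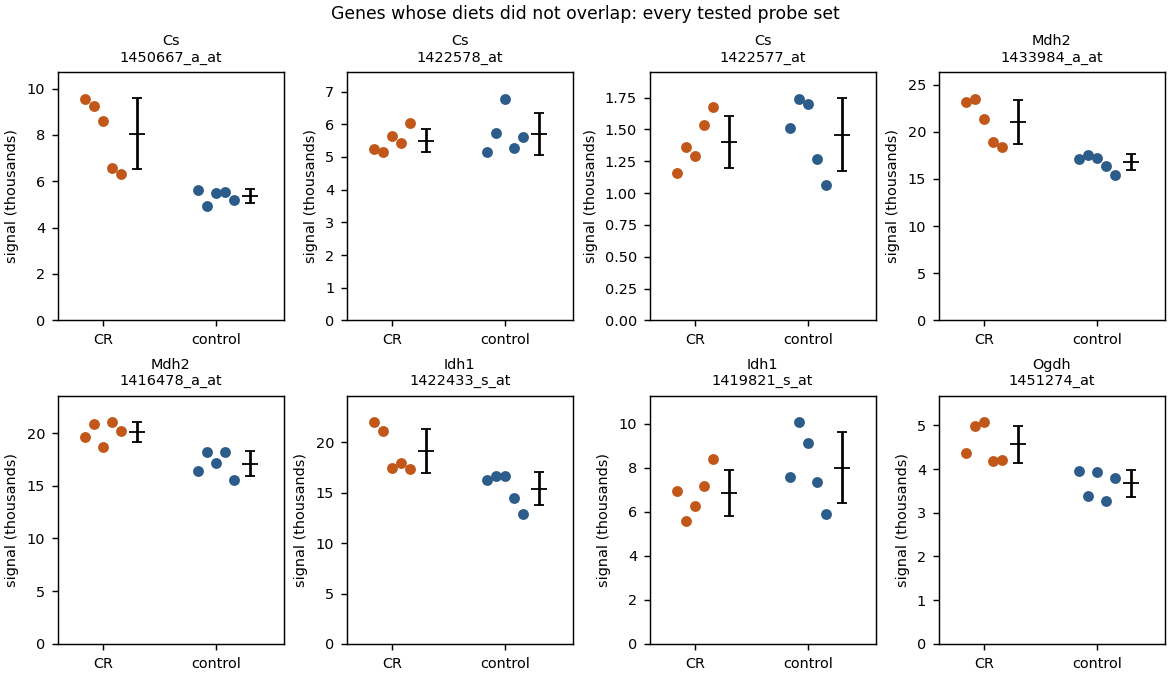
Signal on each array for every tested probe set of Cs, Mdh2, Idh1 and Ogdh, calorie restricted (CR, orange) left of control (blue), replicates 1 to 5 from left to right within a group, bars the mean and SD of 5 arrays. Both Mdh2 probe sets separate the diets, while Cs and Idh1 separate them in the brightest probe set only.

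Of the 6 genes from 2-oxoglutarate to succinate none passed. Ogdh, the decarboxylating subunit of the 2-oxoglutarate dehydrogenase complex, had 4376, 4975, 5065, 4183 and 4213 signal units in calorie-restricted kidneys, against 3949, 3387, 3936, 3277 and 3803 in control kidneys. No array of the groups overlapped. The difference was 0.31 ± 0.094 (adjusted p = 0.0595). It was 0.29 after quantile normalization, 0.22 after median centring (adjusted p = 0.151) and 0.25 over replicates 4 and 5. Dlst, the succinyl transferase of that complex, differed by 0.077 ± 0.086. Its second tested probe set differed by 0.065 ± 0.16 and a dimmer one by 0.75 ± 0.28 (adjusted p = 0.114). The dimmer one had 533, 426, 557, 210 and 188 signal units in calorie-restricted replicates 1 to 5, against 167 to 225 in control kidney.

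Dld, the dihydrolipoyl dehydrogenase shared by the pyruvate and 2-oxoglutarate complexes, had the lowest difference of the list. Its signals were 1827, 1931, 2269, 3574 and 3294 in calorie-restricted replicates 1 to 5, against 3725, 4626, 3774, 2816 and 2692 in control replicates 1 to 5. The 3 low calorie-restricted arrays lay below all controls, and the other two within the control range. The difference was -0.48 ± 0.20 over all arrays (95% interval -0.90 to -0.051, adjusted p = 0.147), 0.32 over replicates 4 and 5 of each diet and 0.15 when the 3' to 5' ratio entered the model. Among the subunits of succinate-CoA ligase, Suclg1 differed by -0.065 ± 0.080, the GTP-specific Suclg2 by 0.055 ± 0.080 and the ATP-specific Sucla2 by 0.022 ± 0.084. A second Suclg2 probe set followed the pattern of Dld, with 1986, 2202, 2341, 3567 and 3187 signal units in calorie-restricted kidneys, against 4058, 3799, 3688, 3049 and 2989 in control kidneys, and differed by -0.43 ± 0.16.

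Mdh2, the mitochondrial malate dehydrogenase that regenerates oxaloacetate, rose. Its brightest probe set had 23127, 23498, 21361, 18934 and 18369 signal units in calorie-restricted replicates 1 to 5, against 17157, 17588, 17180, 16390 and 15455 in the controls. No array overlapped, and calorie-restricted replicates 4 and 5 lay nearest to the controls. The means were 21058 ± 2349 in calorie-restricted and 16754 ± 845 in control kidney (SD, n = 5), a log2 difference of 0.32 ± 0.083 (SE, adjusted p = 0.0385). Its second probe set had 19654, 20807, 18641, 21001 and 20236 signal units in calorie-restricted kidneys, against 16410, 18245, 17200, 18154 and 15503 in control kidneys. There too the groups did not overlap, with a difference of 0.23 ± 0.070 (adjusted p = 0.0624).

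The size of the Mdh2 difference depended on the scaling. After quantile normalization it was 0.083 (adjusted p = 0.471) for the brightest and 0.0023 for the second probe set, and after median centring 0.23 (adjusted p = 0.0696). Over replicates 4 and 5 of each diet the probe sets differed by 0.23 (adjusted p = 0.309) and 0.30. Leaving out 1 array kept the call in 3 of 10 cases, with differences of 0.28 to 0.37; it ended on leaving out any 1 of calorie-restricted replicates 1 to 3 or of control replicates 2 to 5. Its cytosolic partner in the malate shuttle, Mdh1, differed by 0.24 ± 0.11 (adjusted p = 0.2), and its other tested probe sets by 0.071 and 0.17. Fumarase, Fh1, differed by -0.012 ± 0.071 with a 95% interval of -0.16 to 0.14, the narrowest of the list.

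**Figure D3:**
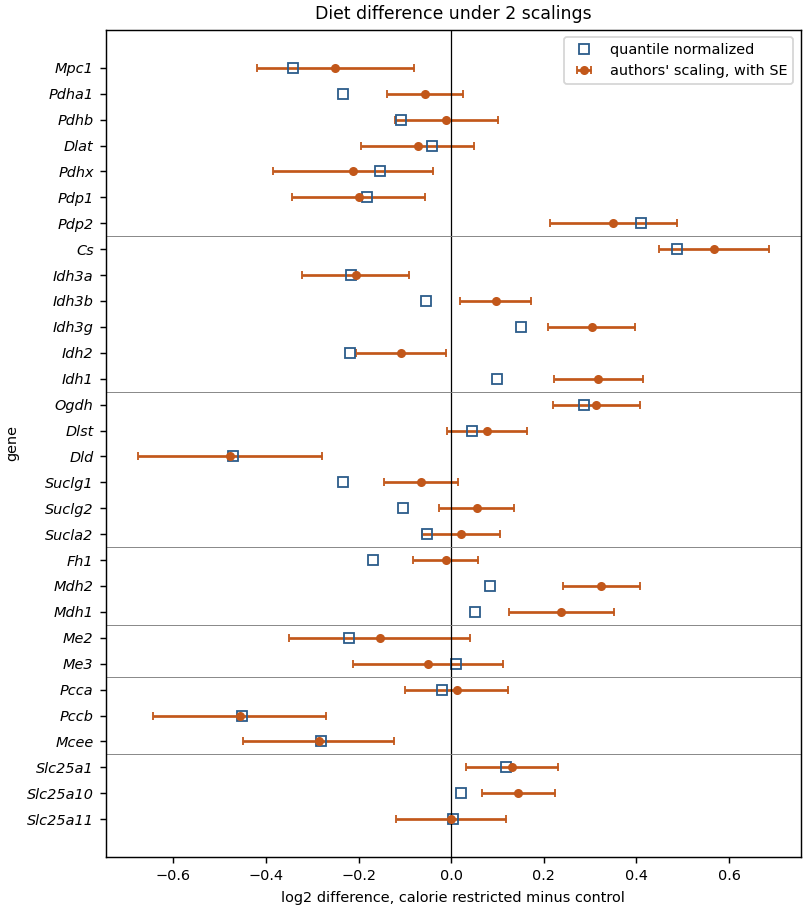
Log2 difference, calorie restricted minus control, for each of 30 genes with the deposited scaling (filled circles, bars the SE from limma, n = 5 per diet) and after quantile normalization (open squares), genes down the page in pathway order. Bright genes such as Mdh2 (0.32 and 0.083) and Idh1 (0.32 and 0.098) shift left under quantile normalization, while Cs (0.57 and 0.49) and Ogdh (0.31 and 0.29) shift little.

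The genes of propionyl-CoA entry did not pass, and 2 of the 3 showed the split seen for Mpc1 and Dld. Pccb, the beta subunit of propionyl-CoA carboxylase, had 1768, 2343, 2494, 3478 and 3687 signal units in calorie-restricted replicates 1 to 5, against 3915, 4684, 3813, 2973 and 3105 in control replicates 1 to 5. The difference was -0.46 ± 0.19 (adjusted p = 0.141) over all arrays and 0.24 over replicates 4 and 5. Mcee, methylmalonyl-CoA epimerase, had 1858, 1902, 1955, 3208 and 3013 signal units in calorie-restricted kidneys, against 2898, 3020, 3328, 2498 and 2472 in control kidneys. The 3 low calorie-restricted arrays again lay below every control, and the difference was -0.29 ± 0.16 (adjusted p = 0.284) over all arrays and 0.32 over replicates 4 and 5. Pcca, the alpha subunit, differed by 0.012 ± 0.11, and its other probe set by -0.13 ± 0.14.

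**Figure D4:**
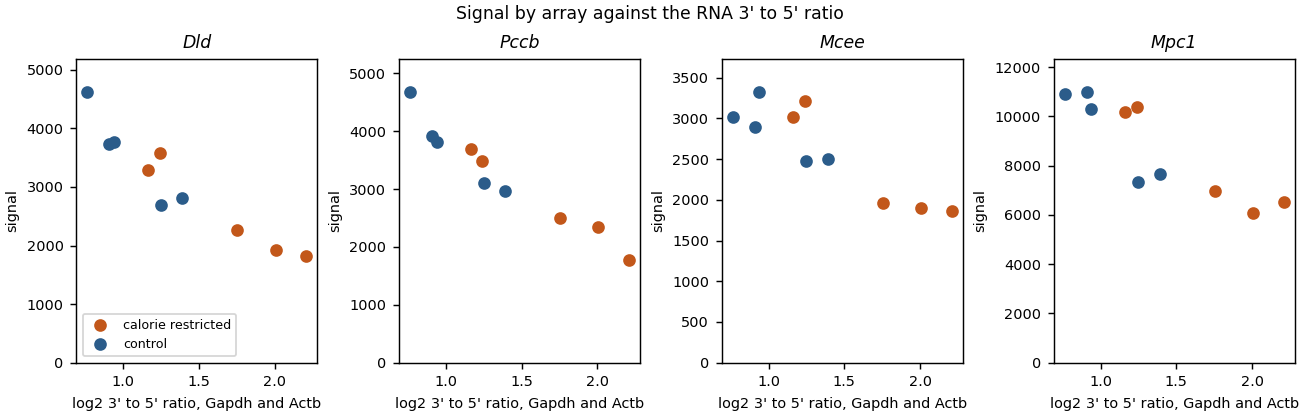
Signal of Dld, Pccb, Mcee and Mpc1, the 4 members with the lowest differences, on each array against the log2 3' to 5' ratio of Gapdh and Actb, calorie restricted in orange and control in blue. The 3 arrays with ratios of 1.75 to 2.21, all calorie restricted, have the lowest signals of each gene.

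Neither malic enzyme passed. Me2, the mitochondrial NAD-dependent form, was dim, with 132 to 182 signal units in calorie-restricted and 113 to 204 in control kidney, and differed by -0.15 ± 0.20. Me3, the mitochondrial NADP-dependent form, differed by -0.050 ± 0.16. The carriers that move cycle intermediates across the inner membrane did not pass either. The citrate carrier Slc25a1 differed by 0.13 ± 0.099, the dicarboxylate carrier Slc25a10 by 0.14 ± 0.078 and the oxoglutarate carrier Slc25a11 by -0.00088 ± 0.12. A second probe set of Slc25a10 differed by -0.31 ± 0.17.

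Read by array rather than by gene, many but not all members moved together within each diet. All of calorie-restricted replicates 1 to 3 lay below both of replicates 4 and 5 for 15 of 30 members, 50% against 23.4% of all tested genes, and above both for 5, 16.7% against 19.3% of all genes. Those 5 were Cs, Idh3g, Ogdh, Mdh2 and Mdh1, among them both members that passed the test. Controls 4 and 5 both lay below controls 1 to 3 for 17 members, 56.7% against 12.5% of all genes. They lay above controls 1 to 3 for 0 members, and the share over all genes in that direction is not given here. The mean of the members' log2 deviations was -0.083, -0.046, -0.047, 0.10 and 0.10 on calorie-restricted arrays 1 to 5, against 0.042, 0.082, 0.085, -0.10 and -0.13 on control arrays 1 to 5. Within each diet the low arrays were those with high 3' to 5' ratios, but controls 4 and 5 were lower in this mean than calorie-restricted replicates 1 to 3, whose ratios were higher. The part of RNA quality in these differences was not tested.

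Over replicates 4 and 5 of each diet, 28 of 30 members (93.3%) differed upward, against 48.5% of all tested genes, and the median difference of the members was 0.21, against -0.011 over all genes. The exceptions were Pdp1 and Me2. None of the 30 passed the test with these 4 arrays, where the lowest adjusted p was 0.0899. When the 3' to 5' ratio entered the model of all 10 arrays, 28 members were again above 0, against 49.7% of all genes, with a median of 0.16 and a lowest adjusted p of 0.279. With calorie-restricted replicates 4 and 5 set against all 5 controls 25 members were above 0, against 52% of all genes, with a median of 0.12. Of 32 other tested genes of the cycle and its neighbours, 25 also differed upward over replicates 4 and 5, with a median of 0.25. With the ratio in the model 24 of these 32 were above 0, so the pattern was not particular to the members. The shares over all genes were not matched for brightness. These settings share arrays, and many members moved together on an array, so the 30 genes are not 30 separate observations. Controls 4 and 5 had the lowest member means of the 10 arrays. Both the count of members above 0 and the size over replicates 4 and 5 therefore also rest on that choice of controls.

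**Figure D5:**
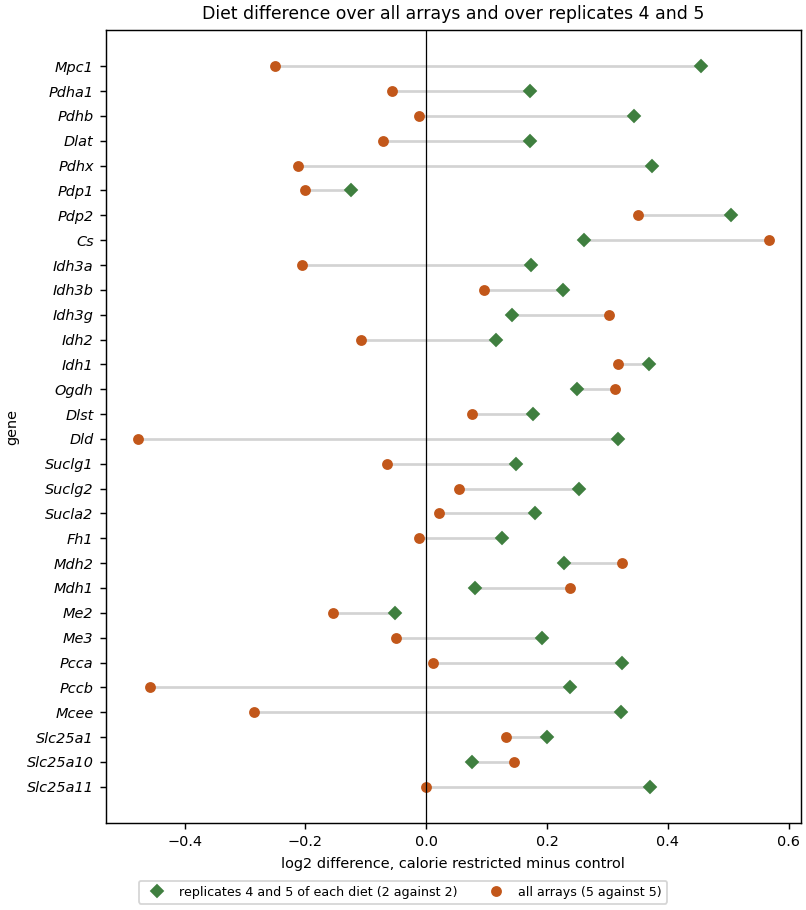
Log2 difference, calorie restricted minus control, over replicates 4 and 5 of each diet (diamonds, 2 arrays against 2) and over all arrays (circles, 5 against 5) for each of 30 genes. The diamonds lie above 0 for 28 genes, and the widest moves are those of Dld (0.32 and -0.48), Mpc1 (0.45 and -0.25) and Pccb (0.24 and -0.46).

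The probe sets of a gene often differed in direction. Besides the brightest, 23 probe sets of 17 members were bright enough to be tested; 11 had the sign of the brightest one and 12 the opposite sign, and 0 passed the test in limma. Names with the suffix s_at or x_at mark probe sets that may also bind related transcripts, which touches the brightest ones of Dlat, Idh3b, Idh1, Suclg2 and Mdh1.

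Of 38 other symbols of the cycle and its neighbours 32 were measured and tested, and 3 rose, 0 fell and 29 did not pass, a share of 9.38% beside the background of 6.10%. Got2, the mitochondrial aspartate aminotransferase of the malate shuttle, rose by 0.33 ± 0.068 (adjusted p = 0.0212). It had 12842 to 13989 signal units in calorie-restricted and 10054 to 11334 in control kidney, without overlap, and differed by 0.30 over replicates 4 and 5. Pcx, pyruvate carboxylase, which feeds oxaloacetate into the cycle, rose by 0.40 ± 0.11 (adjusted p = 0.045), with 10329 to 14816 signal units in calorie-restricted and 8445 to 9940 in control kidney, and differed by 0.16 over replicates 4 and 5. Ldhb, a subunit of lactate dehydrogenase, rose by 0.27 ± 0.077 at the very edge of the threshold (adjusted p = 0.04995). After quantile normalization these 3 differed by 0.17, 0.26 and -0.023, and 0 of the 32 passed there.

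Of the genes of that list that did not pass, those with the smallest p were Pdk4, Pdk2, Aco1 and Dhtkd1. Pdk4, a kinase that switches pyruvate dehydrogenase off and is known to be induced by fasting, had 709, 1203, 699.6, 1019 and 510 signal units in calorie-restricted kidneys, against 2072, 810, 1497, 1681 and 3679 in control kidneys. The groups overlapped through control replicate 2, and the difference was -1.13 ± 0.32 (adjusted p = 0.0528). It was -1.79 over replicates 4 and 5 of each diet. Pdk2, another such kinase, differed by 0.37 ± 0.11 (adjusted p = 0.0549), with calorie-restricted replicates 1 to 3 at 4786 to 5168 signal units and replicates 4 and 5 at 3941 and 3772, against 3234 to 3851 in control kidney. The cytosolic aconitase Aco1 differed by 0.30 ± 0.088 (adjusted p = 0.058) and Dhtkd1, a dehydrogenase of lysine breakdown, by 0.44 ± 0.16 (adjusted p = 0.0979).

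Markers of other cell types moved beside these genes, and their part in the results was not tested. Of 22 proximal tubule markers 14 rose and 0 fell, where 3.08% of all tested genes were called higher and 3.02% lower. Their median difference was 0.39 (0.25 after quantile normalization). The summed signal was 351672 to 421772 in calorie-restricted and 249608 to 313638 in control kidney. The mean log2 deviation of these markers was 0.22, 0.33, 0.25, 0.16 and 0.084 on calorie-restricted arrays 1 to 5, against -0.0090, -0.17, -0.23, -0.48 and -0.14 on control arrays 1 to 5. After quantile normalization only Slc22a6, Kap and Ttc36 of them passed in limma (adjusted p 0.0488, 0.0498 and 0.0385). With the 3' to 5' ratio in the model none passed, and the lowest adjusted p was 0.0739, for Ttc36. Collecting duct markers rose in 2 of 11 cases (median difference 0.23), podocyte markers fell in 2 of 6 (median -0.32) and stroma and smooth muscle markers fell in 2 of 10 (median -0.25). The medians of lists in which no gene passed were 0.063 over 12 thick limb and distal tubule markers, -0.15 over 8 endothelial markers and 0.50 over 2 adrenal markers. Of B and plasma cell markers 1 of 5 fell (median -0.996), of T cell markers 1 of 4 rose (median 0.29) and of red cell markers 1 of 2 rose (median 0.67). The T cell marker that rose was Zap70. Cd3g, Thy1 and Cd8a differed by -0.0020, 0.15 and 0.42 without passing, and 3 T cell markers lay below the filter. The red cell marker that rose was Slc4a1, whose same probe set was also counted among the collecting duct markers that rose. Macrophage markers fell in 5 of 11 cases (summed signal 15638 to 25331 in calorie-restricted and 21426 to 37497 in control kidney). Markers of fat, whose brown form is rich in citrate cycle enzymes, fell in 2 of 7 tested cases. The summed signal of that list was 7417 to 13017 in calorie-restricted and 15715 to 21608 in control kidney. The brown fat gene Ucp1 stood at 125 to 592 in calorie-restricted and 241 to 1270 in control kidney. Ucp1 did not pass the test in limma (adjusted p = 0.0989). Skeletal muscle markers were at 354 to 597 in sum in calorie-restricted and 313 to 466 in control kidney, with 7 of 8 below the filter.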

How the data were processed

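Affymetrix arrays were hybridised with kidney RNA of 10 mice, 1 per array. The deposited values are the authors' MAS5 signal, a linear-scale intensity. Per the submitters' processing notes, MAS5 and Affymetrix Expression Console were used; their versions are not stated. Each array's mean without the lowest and highest 2% was 500.003, so the deposited intensity values were scaled to a common mean. Genes were named from the platform annotation: 34958 of 45101 probe sets had 1 symbol, 932 several and 9211 none. Values below 1 were set to 1 (0 in tested probe sets) and log2 was taken. A probe set was tested where its mean log2 signal reached the median of all non-control ones, 6.81. Calorie restricted minus control was fitted over all 22519 tested probe sets with limma 3.58.1 in R 4.3.3 (eBayes with an intensity trend, 2-sided), adjusted by Benjamini-Hochberg over all of them, threshold 0.05; the script was tested on simulated data. The labels call the arrays biological replicates, so p-values reflect the spread between mice. The number of arrays, 5 per diet, limits the precision.

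Members, other pathway genes, marker lists, tests and alternatives were chosen with earlier results of these data known. All members are named; of the other pathway genes, those past the threshold and the 4 next by p. Alternatives were other filters, quantile normalization, median centring, log2(signal + 50), other eBayes settings, array weights, the replicate number as a block, the 3' to 5' ratio as covariate, replicates 4 and 5, each array left out, and averaging the probe sets of a gene.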

Additional observations from a re-analysis of the deposited data

Results flagged for a closer look

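The citrate carrier Slc25a1 had 2925 signal units on calorie-restricted replicate 2, the lowest of its group. On log2 values the gap to the next array was 0.732 of the group's range, above Dixon's critical value of 0.71 for 5 arrays. It was the 1 such case among 60 groups of 5 arrays (30 genes, 2 diets); chance gives about 1 in 20 groups.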

How the results depend on the processing

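The counts of calls moved with most settings. Against 1371 probe sets, 2 members and 3 other pathway genes, there were 287, 0 and 0 with no filter, 751, 1 and 0 after quantile normalization, 243, 0 and 0 without the eBayes trend, 2292, 4 and 6 with array weights, 9, 0 and 0 with the 3' to 5' ratio in the model, 198, 0 and 0 over replicates 4 and 5, and 1, 0 and 0 with every control set against calorie-restricted replicates 4 and 5. The stricter filter gave 1554 probe sets, from the brightest 30% only, with 4 members and 6 pathway genes. Median centring gave 1533, 1 and 1, and averaging probe sets gave 1 member and 1 pathway gene. Thresholds of 0.1 and 0.01 gave 5 and 0 members, and the shares over all genes at those thresholds are not given here. The replicate numbers did not pair the samples (correlations of same-numbered deviations -0.14 to -0.087), and the replicate block gave 127 probe sets, 0 members and 0 pathway genes. Leaving out 1 array gave 125 to 2481 probe sets, 0 to 5 members, 0 to 6 pathway genes, members' medians of -0.045 to 0.035 and ratio differences of 0.49 to 0.75 (exact permutation p 0.0397 to 0.0794). The members' median was -0.10 after median centring (all genes -0.10), 0.16 with the ratio in the model, 0.21 over replicates 4 and 5 and 0.12 with every control set against calorie-restricted replicates 4 and 5. The sign turned for 14, 14 and 11 members in those last 3 settings, 6 after quantile normalization, 6 on averaging probe sets and 5 after median centring, and for 0 of Cs and Mdh2 in 23 settings. Adding 50 before log2 and robust eBayes changed these counts least. The causes were not tested.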
